A study of Mus musculus with 9 samples.

Results

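The stefin A genes of mouse chromosome 16, with the related gene *Cstb*, were followed in skin RNA-Seq of *Supt6*-KO and control mice. Members were taken by symbol from the count table: *Csta1*, *Csta2*, *Csta3*, *Cstdc4*, *Cstdc5*, *Cstdc6*, *Stfa2l1* and *Cstb*, 8 of 17943 genes. They had been picked for their counts in the *Supt6*-KO mice against the controls, so their levels and changes in that comparison are given as a description, without a test. The matched RefSeq genes place 7 of them within 335 kb at chr16:36119946-36455392 (GRCm38, which is mm10), whereas *Cstb* lies apart from that cluster, at chr10:78425670-78427622.

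The table holds 9 skin libraries, 5 from control and 4 from *Supt6*-KO mice, taken 10 days after the last injection. Control mice are labelled wild-type, and the study's methods give them as *Supt6* fl/fl animals that received corn oil. *Supt6*-KO mice were K14-CreERT; *Supt6* fl/fl animals that received tamoxifen intraperitoneally once a day, and their labels also read *Supt6* knockdown. A treatment field that all 9 samples share names tamoxifen, so for the controls it differs from the methods. By the methods both groups carried the floxed alleles, and the Cre transgene, the tamoxifen and the loss of *Supt6* came together and cannot be told apart. The K14 promoter drives Cre in basal keratinocytes, while the RNA came from whole skin, so fewer cells of a type and less RNA per cell cannot be told apart either. The labels name the tissue ear and the methods name dorsal skin. The cartilage markers *Col2a1*, *Acan*, *Col9a1*, *Comp* and *Matn1* summed to 220–599 CPM in the controls and 30.4–35.8 CPM in the *Supt6*-KO mice. *Matn1* itself was near absent, with 0–1 counts in the controls and 0 in the *Supt6*-KO mice. RNA of the other cartilage markers was present in the controls, and its part in the results was not tested.

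Estimated counts per library were 29627341–30967107. Levels are given as estimated counts or as CPM, counts per 1e6 scaled between libraries by TMM factors. The targeted gene *Supt6* had 2786, 2068, 2297, 3370 and 3798 estimated counts in controls 1 to 5 and 684, 503, 478 and 791 in *Supt6*-KO mice 1 to 4. The groups did not overlap, and *Supt6* averaged 76.5 ± 17.2 CPM (SD, n = 5) in controls against 25.7 ± 3.31 CPM (SD, n = 4), a log2 change of −1.57 ± 0.18 (SE, edgeR adjusted p = 1.3e-05). These counts cover the whole gene, of which the floxed alleles remove only some exons.

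Stefins, or type 1 cystatins, are small intracellular proteins that reversibly block papain-like cysteine proteases such as the cathepsins, without a disulfide bond or a secretion signal. Cystatin A is made by differentiating keratinocytes, where transglutaminases can link it into the cornified envelope, and cystatin B is found in most tissues. The mouse carries an expanded, tandem set of stefin A genes in place of the human gene *CSTA*, and several of them are also known from neutrophils and other myeloid cells.

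The cluster reaches from *Csta1* at one end to *Stfa3* at the other, and the reference lists 11 stefin genes in it. Of these, 10 had a row in the table, the 7 members and *Stfa1*, *Stfa2* and *Stfa3*, which are used below as neighbors that the rule did not name. No other gene with a row lies inside the cluster. *Csta1* (chr16:36119946-36131189), *Cstdc6* (chr16:36321665-36334332) and *Cstdc5* (chr16:36359382-36367570) are on the minus strand. *Stfa2l1* (chr16:36156811-36161948), *Cstdc4* (chr16:36184212-36188111), *Csta3* (chr16:36210403-36217788) and *Csta2* (chr16:36221562-36257447) are on the plus strand.

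The copies are so alike that the sequence itself bears on how far the counts can be trusted. A stretch of 60 coding bases spanning the conserved inhibitor loop is shown for each gene as the spliced GENCODE transcript on GRCm38 reads it, 5′ to 3′, with capitals at bases that differ from *Cstdc5*, the member with the highest counts in the *Supt6*-KO mice.
Cstdc5: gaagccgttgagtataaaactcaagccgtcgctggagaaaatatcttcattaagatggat
Cstdc6: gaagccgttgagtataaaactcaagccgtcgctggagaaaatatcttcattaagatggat
Stfa1: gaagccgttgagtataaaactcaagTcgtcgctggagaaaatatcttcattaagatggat
Cstdc4: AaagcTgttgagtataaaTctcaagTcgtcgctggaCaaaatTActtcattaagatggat
Csta2: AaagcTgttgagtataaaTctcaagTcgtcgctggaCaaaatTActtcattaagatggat
Csta3: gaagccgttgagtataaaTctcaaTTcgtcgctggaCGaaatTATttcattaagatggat
Stfa3: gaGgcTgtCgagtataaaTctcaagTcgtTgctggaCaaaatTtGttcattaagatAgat
Stfa2l1: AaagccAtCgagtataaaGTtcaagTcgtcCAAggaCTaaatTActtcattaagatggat
Stfa2: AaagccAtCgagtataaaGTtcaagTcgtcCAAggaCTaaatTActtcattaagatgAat
Csta1: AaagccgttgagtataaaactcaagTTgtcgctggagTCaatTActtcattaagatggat
Cstb: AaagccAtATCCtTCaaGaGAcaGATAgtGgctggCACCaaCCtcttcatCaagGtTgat
*Cstdc6* did not differ from *Cstdc5* at any of these 60 bases and *Stfa1* differed at 1. *Csta1*, *Cstdc4* and *Csta2* differed at 7, *Csta3* at 8, *Stfa3* at 10, *Stfa2l1* at 13, *Stfa2* at 14 and *Cstb* at 25. *Cstdc4* and *Csta2* were identical to each other over the stretch.

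Over the whole coding sequence the closest pairs were *Stfa1* with *Cstdc5* (97.9% identical), *Cstdc4* with *Csta2* (96.9%), *Stfa2l1* with *Stfa2* (96.4%) and *Cstdc6* with *Cstdc5* (96.2%). *Csta3* was nearest to *Cstdc5* at 89.7%, *Csta1* to *Csta2* at 84.2% and *Cstb* to *Csta2* at 65.0%. Each transcript was cut into all windows of 100 bases, the read length of the library, and compared with the other 10 of these 11 transcripts. None of the windows of *Csta1*, *Csta3*, *Stfa3* or *Cstb* came within 5 mismatches of another of them, and every deposited count of these 4 genes was a whole number. In contrast, 84.7% of the *Cstdc6* windows were within 5 mismatches of another copy, mostly *Cstdc5*, and 13.5% were identical to it. The same share within 5 mismatches was 85.0% for *Cstdc5*, 85.3% for *Stfa1*, 70.3% for *Stfa2l1*, 60.5% for *Stfa2*, 59.0% for *Cstdc4* and 34.4% for *Csta2*. Only these 7 of the 11 genes had estimated counts that were not whole, which is how reads divided among copies appear in the table. Their split was made by the authors' read assignment and cannot be checked from the counts, so single values for *Cstdc5*, *Cstdc6*, *Cstdc4*, *Csta2* and *Stfa2l1* are less certain than those for *Csta1*, *Csta3* and *Cstb*.

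*Cstdc5*, a stefin A copy near the *Stfa3* end of the cluster, had the highest counts of the members in the *Supt6*-KO mice. Its deposited estimated counts were 300.83, 324.84, 208.78, 95.48 and 87.68 in controls 1 to 5, and 109693.32, 120656.09, 173292.61 and 90490.64 in *Supt6*-KO mice 1 to 4. The groups were far apart, with *Supt6*-KO 3 highest and controls 4 and 5 lowest. On average there were 5.51 ± 3.06 CPM (SD, n = 5) in controls against 5390 ± 1980 CPM (SD, n = 4), 9.93 ± 0.57 (SE) apart on the log2 scale. By count *Cstdc5* ranked 25, 33, 10 and 21 among all genes in *Supt6*-KO mice 1 to 4 and between 9661 and 12511 in the controls.

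All 8 members lay higher in every *Supt6*-KO mouse than in any control. For other genes the call rule was an adjusted p under 0.05 and at least 2-fold in the edgeR fit across 16426 genes. That rule called 20.9% of all tested genes higher and 24.9% lower, while 28.9% of all tested genes had every *Supt6*-KO mouse above every control and 31.8% had every one below. Because the members were chosen on this comparison, nothing is read from their counts. The plot of levels by mouse shows each value.

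**Figure D1:**
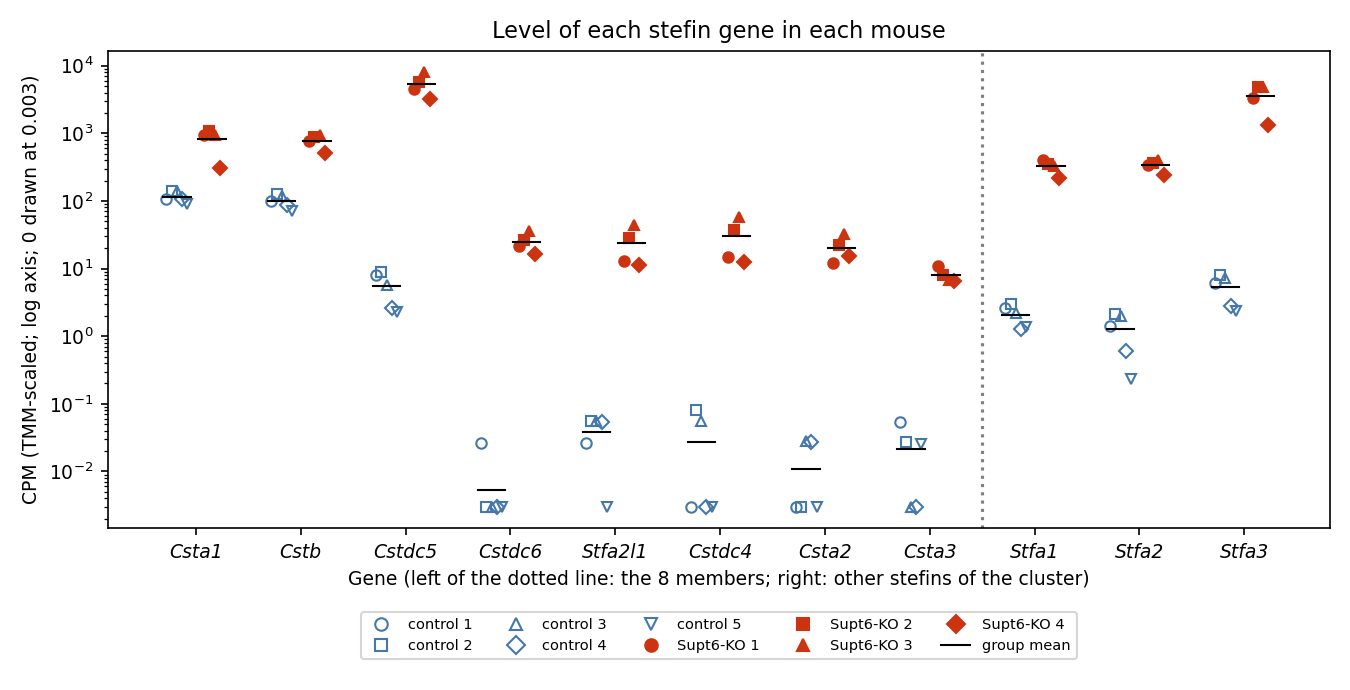
Level of the 8 members and of *Stfa1*, *Stfa2* and *Stfa3* in each mouse, in TMM-scaled CPM on a log axis. Open blue symbols are the 5 controls, filled red symbols the 4 *Supt6*-KO mice and bars the group means, with a CPM of 0 drawn at 0.003. In each of the 11 genes the *Supt6*-KO mice lie above the controls, and *Supt6*-KO 4 is the lowest of its group for every gene except *Csta2*.

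Of the 7 members on chromosome 16, 5 were at or near 0 in every control: *Csta2*, *Csta3*, *Cstdc4*, *Cstdc6* and *Stfa2l1* each had at most 3 estimated counts in any control. For these the ratio of the group totals is given with an exact 95% interval, which covers counting error only. *Cstdc6* had 1 estimated count in control 1 and 0 in controls 2 to 5, and 521.88, 546.35, 781.5 and 462.06 in *Supt6*-KO mice 1 to 4. The ratio was 4560 (817–180000), and its log2 fold change of 11.39 ± 0.46 (SE) was the largest among the members with the default prior count. With a prior count of 2 it was 8.50, below *Cstdc5* at 9.92, so the order rests on how 1 control count is treated.

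*Csta2* had 0, 0, 1, 1 and 0 estimated counts in controls 1 to 5 and 284, 459.27, 697.45 and 422.49 in *Supt6*-KO mice 1 to 4. In CPM it was the one member lowest in *Supt6*-KO 1, and the ratio was 1840 (507–15200). *Cstdc4*, its closest copy, had 0, 3, 2, 0 and 0 counts in controls 1 to 5, against 353, 766.73, 1270.55 and 347.51 in the *Supt6*-KO mice. *Supt6*-KO mice 2 and 3 were well above mice 1 and 4 here, the widest spread of any member (CV 70.1%), and the ratio was 1080 (462–3330). The quotient of *Cstdc4* over *Csta2* counts ran from 0.823 to 1.82 among the *Supt6*-KO mice.

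*Stfa2l1* had 1, 2, 2.01, 2.02 and 0 estimated counts in controls 1 to 5 and 310.94, 583.27, 968.7 and 312.14 in *Supt6*-KO mice 1 to 4. As for *Cstdc4*, mice 2 and 3 were the high ones, and the ratio was 613 (297–1530). *Csta3*, which shares no read-length window with another copy, had 2, 1, 0, 0 and 1 counts in controls 1 to 5, against 259, 166, 148 and 181 in the *Supt6*-KO mice. *Csta3* was highest in *Supt6*-KO 1, varied least (CV 24.7%, as for *Cstb*), and gave a ratio of 372 (145–1370). Its counts were whole in all 9 mice, so the low control values and the *Supt6*-KO values were not divided with another copy.

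The counts of the near-identical copies kept different relations. The *Cstdc6* count was 0.451–0.511% of the *Cstdc5* count in all 4 *Supt6*-KO mice, a nearly fixed share, while *Cstdc5* itself ranged from 3250 to 7930 CPM. *Stfa2l1* was 3.77–10.8% of *Stfa2* in the *Supt6*-KO mice. *Stfa1* was 32.0–62.0% of *Cstdc5* in the controls and 4.14–8.72% in the *Supt6*-KO mice, without overlap. How much of the *Cstdc6* count came from reads of *Cstdc5* was not tested.

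*Csta1*, the long stefin A transcript at the edge of the cluster, and *Cstb*, which encodes cystatin B, were the 2 members well expressed in control skin. *Csta1* had 3995, 5172, 5016, 3864 and 3490 counts in controls 1 to 5 and 22522, 22259, 20372 and 8492 in *Supt6*-KO mice 1 to 4. *Supt6*-KO 4 stood below the other 3, but above all controls. *Csta1* averaged 116 ± 23.1 CPM (SD, n = 5) in controls against 811 ± 343 CPM (SD, n = 4), 2.80 ± 0.32 (SE) apart on the log2 scale.

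*Cstb* had 3792, 4618, 4252, 3266 and 2742 counts in controls 1 to 5, against 18453, 18295, 20799 and 14261 in the *Supt6*-KO mice. *Supt6*-KO 4 was again lowest, by a smaller margin. *Cstb* averaged 101 ± 22.7 CPM (SD, n = 5) in controls against 778 ± 192 CPM (SD, n = 4), 2.95 ± 0.23 (SE) apart on the log2 scale. *Csta1* and *Cstb* changed 6.99-fold and 7.72-fold by group means, against 978-fold for *Cstdc5*. With library totals in place of TMM factors, the log2 fold change was 2.06 for *Csta1*, 2.23 for *Cstb* and 9.21 for *Cstdc5*.

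The neighbors *Stfa1*, *Stfa2* and *Stfa3* were not in the rule, and share the cluster and much sequence with the members. *Stfa3* had 232, 293, 259, 102 and 93 counts in controls 1 to 5 and 79530, 102405, 105435 and 36404 in *Supt6*-KO mice 1 to 4, with no overlap and with *Supt6*-KO 4 far below the rest. It rose from 5.30 ± 2.59 to 3590 ± 1690 CPM, a log2 fold change of 9.40 ± 0.59 (SE, edgeR adjusted p = 3.6e-07). *Stfa3* has no window near another copy, and its counts were whole in all 9 mice.

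*Stfa1* rose from 2.08 ± 0.746 to 323 ± 75.4 CPM, a log2 fold change of 7.28 ± 0.31 (SE, edgeR adjusted p = 5.5e-08). *Stfa2* rose from 1.26 ± 0.83 to 341 ± 70.1 CPM, a log2 fold change of 8.08 ± 0.52 (SE, edgeR adjusted p = 4.2e-07). For both, every *Supt6*-KO mouse was above every control. The 3 neighbors all passed the call rule, beside 20.9% of all tested genes, and the counts of *Stfa1* and *Stfa2* were divided with other copies.

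Taken as a group, the 10 stefin genes of the cluster made up 0.0125–0.0196% of all counts in the controls and 0.490–1.03% in the *Supt6*-KO mice. In CPM the sum was 125, 164, 156, 112 and 95.1 in controls 1 to 5 and 9664, 12602, 14594 and 5389 in *Supt6*-KO mice 1 to 4. This sum does not depend on how reads were split among these 10 genes. The 7 members alone summed to 122 ± 25.3 CPM (SD, n = 5) in the controls and 6307 ± 2282 CPM (SD, n = 4) in the *Supt6*-KO mice, a log2 ratio of 5.69.

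The makeup of that sum differed between the groups. *Csta1* held 85.3–93.5% of the stefin counts in the controls, and 5.66–9.74% in the *Supt6*-KO mice. *Cstdc5* went from 2.299–6.43% to 45.9–60.3%, and *Stfa3* from 2.47–4.96% to 24.3–39.0%. None of these ranges overlapped. By count, most of the stefin sum was *Csta1* in control skin and *Cstdc5* with *Stfa3* in *Supt6*-KO skin.

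Levels of different genes compare only per length, since the annotated *Csta1* transcript has 2783 bases and the other members 294–639. Per kilobase, *Csta1* held 61.9 ± 9.91% of the stefin level in the controls (SD, n = 5) and 1.15–1.95% in the *Supt6*-KO mice. The TPM values deposited for the 5 controls and *Supt6*-KO 4 carry the authors' own length correction, which is not the one used here. In them the share of *Csta1* in the controls was 30.0%. On that scale *Csta1* at 75.1 ± 6.39 TPM, *Cstdc5* at 67.1 ± 34.7 TPM and *Stfa3* at 79.9 ± 33.2 TPM (SD, n = 5) had overlapping ranges in the controls. Which stefin A was highest there thus depends on the length correction.

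**Figure D2:**
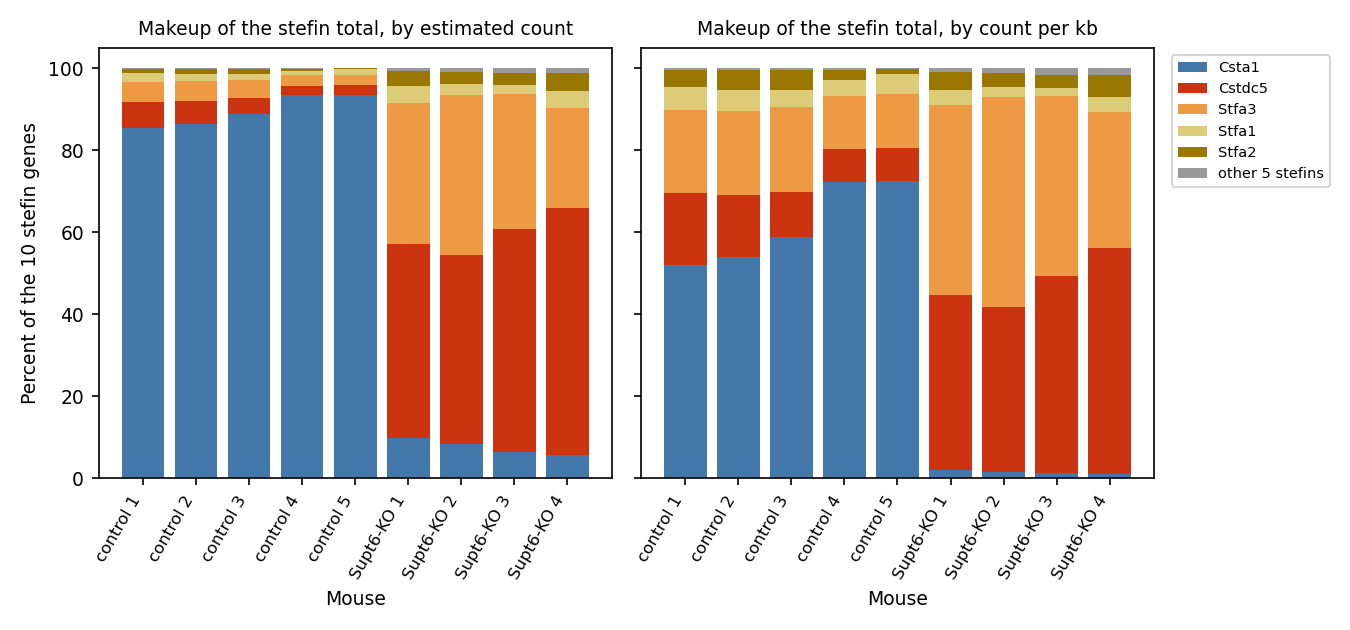
Percent of the summed stefin counts of the cluster (10 genes) held by each gene in each mouse, by estimated count on the left and by count per kilobase of annotated transcript on the right. *Csta1* holds 85.3–93.5% by count in the 5 controls and under 10% in the 4 *Supt6*-KO mice, where *Cstdc5* and *Stfa3* hold most of the sum.

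The order of levels per kilobase in the controls was *Cstb* at 167 ± 37.6 CPM per kb, *Csta1* at 41.7 ± 8.29, *Stfa3* at 12.9 ± 6.28 and *Cstdc5* at 8.90 ± 4.94 (SD, n = 5). *Stfa1* (3.38 ± 1.21) and *Stfa2* (2.68 ± 1.76) followed. The ranges of *Stfa3* and *Cstdc5* overlapped, as did those of *Stfa1* and *Stfa2*, but within mice *Stfa3* was above *Cstdc5* in 5 of 5 controls and *Stfa1* above *Stfa2* in 4 of 5. The other 5 members were under 0.1 CPM per kb, which is too few counts to order them.

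In the *Supt6*-KO mice the order per kilobase was led by *Stfa3* at 8720 ± 4100 and *Cstdc5* at 8700 ± 3210 CPM per kb (SD, n = 4). *Stfa3* was the higher of the pair in mice 1 and 2 and *Cstdc5* in mice 3 and 4. *Cstb* followed at 1290 ± 318, *Stfa2* at 723 ± 149, *Stfa1* at 524 ± 122 and *Csta1* at 292 ± 123 CPM per kb. *Cstdc4*, *Cstdc6*, *Stfa2l1*, *Csta2* and *Csta3* lay between 27.3 and 73.8 CPM per kb. In the deposited TPM of *Supt6*-KO 4, *Cstdc5* had 22093.67 TPM, the highest value of all genes in that column, and *Stfa3* had 11185.35 TPM, in 5th place. On the same TPM scale *Csta1* had 100.69 in *Supt6*-KO 4 against 69.59–82.82 in the controls, and *Cstb* had 1512.62 against 469.52–633.51. *Csta3* (246.48 TPM), *Cstdc6* (178.81) and *Cstdc4* (105.86) were above *Csta1* on that scale in *Supt6*-KO 4 and below it per kilobase here. Per kilobase, *Csta3* was at 22.1 and *Csta1* at 110 CPM per kb in that mouse. Each of the other members and neighbors stood lower against *Csta1* per kilobase than by TPM there, so the order depends on the length correction.

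The fold changes are set against a trend with transcript length that ran through the whole table. In 20 bins of equal size, the median log2 fold change went from 1.38 among genes with a median length of 721 bases to −1.11 among those with a median of 9799 bases. The median over all genes was −0.07. For each member the 500 tested genes of nearest length were taken for comparison. Their median log2 fold change was 1.38–1.47 for the short stefin A genes, 1.41 for *Cstb* and 0.03 for *Csta1*.

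Measured from that median, *Cstb* was 1.54 above genes of its length on the log2 scale and *Csta1* was 2.78 above, against log2 fold changes of 2.95 and 2.80 without the comparison. *Cstdc5* was 8.55 above, *Cstdc6* 9.91, *Csta2* 9.04, *Cstdc4* 8.48, *Stfa2l1* 7.71 and *Csta3* 6.83. These values rest on the default prior count. With a prior count of 2 and no centering, *Csta2* went from 10.42 to 8.08 and *Cstdc4* from 9.95 to 8.39. *Stfa2l1* then went from 9.18 to 7.89 and *Csta3* from 8.30 to 6.56, while *Cstdc5* barely moved (9.93 to 9.92). The part of the length trend in the results was not tested, nor was its source.

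**Figure D3:**
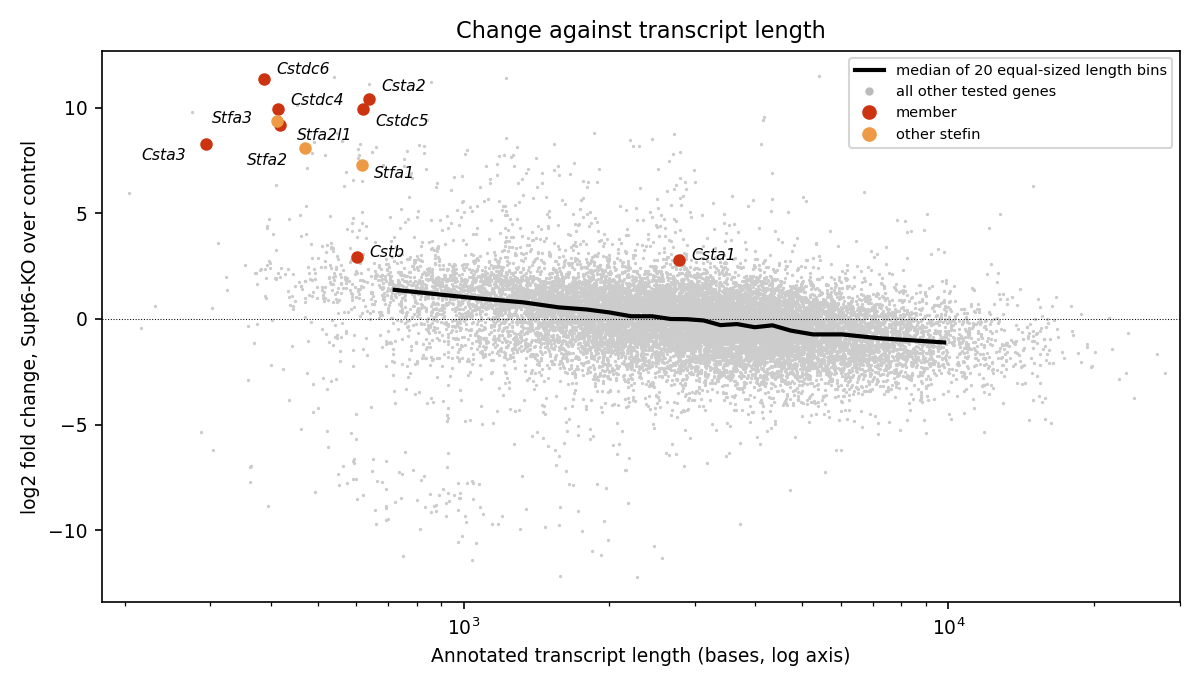
Log2 fold change of each tested gene against the length of its annotated transcript, with length on a log axis. Grey points are all tested genes, the black line joins the medians of 20 bins of equal gene number, red points are the members and orange points *Stfa1*, *Stfa2* and *Stfa3*. The line falls from 1.38 to −1.11, and *Cstb* lies 1.54 above genes of its own length while *Csta1* lies 2.78 above.

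Position in the cluster and the genes beside it were examined next. *Csta1*, at the outer edge, had the smallest change of the 10 stefins, and the other 9 had log2 fold changes from 7.28 to 11.39, on both strands. Among the 10 flanking genes, 3 were called higher and 1 lower, beside 20.9% and 24.9% of all tested genes. *Fam162a*, which encodes a mitochondrial protein, rose from 32.5 ± 8.34 to 480 ± 131 CPM (log2 fold change 3.88 ± 0.24, edgeR adjusted p = 3.5e-07). *Ccdc58*, next to *Csta1*, rose from 9.31 ± 1.81 to 64.4 ± 11.1 CPM (log2 fold change 2.79 ± 0.17, edgeR adjusted p = 3.3e-07). These 2 genes lie on the *Csta1* side, and beyond them *Wdr5b* (0.16), *Kpna1* (0.50) and *Parp9* (0.56) were not called and were below 0 with library totals (−0.55, −0.17 and −0.18).

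On the *Stfa3* side the nearest gene, *Casr*, the calcium-sensing receptor gene, had 2–8 counts in controls against 0–2 in the *Supt6*-KO mice and was called lower (log2 fold change −2.64 ± 0.88, edgeR adjusted p = 0.019), with the groups overlapping. *Cd86* (0.27, and −0.45 with library totals), *Ildr1* (−0.83, and −1.51 with library totals, where it was called lower) and *Slc15a2* (0.88) were not called. *Eaf2*, a gene for an elongation factor partner, was called higher at 1.05 ± 0.22 (edgeR adjusted p = 0.0012). *Eaf2* was not called with library totals (0.36), with upper-quartile factors (0.96) or when 10 counts were asked for in every mouse (1.00). None of the 10 flanking genes had a log2 fold change as large as that of any of the 9 stefins other than *Csta1*.

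**Figure D4:**
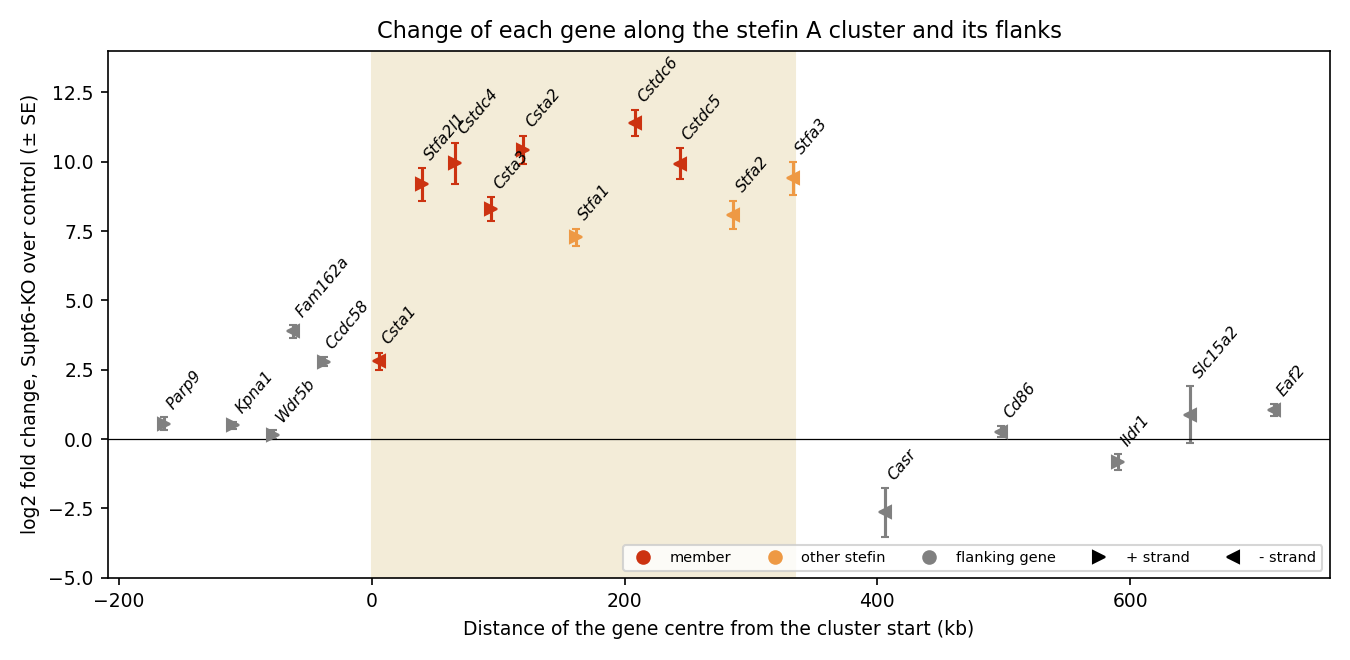
Log2 fold change with SE for the 10 stefin genes and the 5 flanking genes on each side, placed by distance in kb from the start of the cluster, which is shaded. Arrowheads give the strand, red points are members, orange points the other stefins and grey points flanking genes. The stefins other than *Csta1* lie between 7.28 and 11.39, and no flanking gene exceeds 3.88.

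The promoters of genes that moved together were read next. RefSeq promoters of GRCm38.p6, from 250 bases before to 50 after the start site, were on hand for 9 of the 10 stefin genes, all but *Cstdc6*. Those of *Cstdc5* and *Stfa1* were 96.4% identical, those of *Stfa2l1* and *Stfa2* 92.9%, and those of *Csta3* and *Cstdc5* 92.6%. *Csta1*, with its much smaller change, was 84.8% identical to *Cstdc5*. All these percentages count aligned bases only and leave out gaps and unpaired ends. The windows of *Csta1* and *Cstdc5* are shifted against each other, with the shared CTTCCTC at -181 in *Csta1* and -249 in *Cstdc5*. The end of the *Cstdc5* window, which holds its start site, therefore has no counterpart in the *Csta1* window. The promoter given for *Csta2* stood apart, at 50.5–58.9% identity to the other 8. The promoters of the most changed abundant member and of the least changed one are shown, with capitals at motif matches.
Cstdc5 (chr16:36367521-36367820, minus strand): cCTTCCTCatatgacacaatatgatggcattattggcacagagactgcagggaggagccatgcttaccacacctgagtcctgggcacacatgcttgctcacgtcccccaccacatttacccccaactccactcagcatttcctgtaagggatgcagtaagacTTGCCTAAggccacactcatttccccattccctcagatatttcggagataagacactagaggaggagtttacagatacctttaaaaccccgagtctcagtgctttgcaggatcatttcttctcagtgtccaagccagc
Csta1 (chr16:36131140-36131439, minus strand): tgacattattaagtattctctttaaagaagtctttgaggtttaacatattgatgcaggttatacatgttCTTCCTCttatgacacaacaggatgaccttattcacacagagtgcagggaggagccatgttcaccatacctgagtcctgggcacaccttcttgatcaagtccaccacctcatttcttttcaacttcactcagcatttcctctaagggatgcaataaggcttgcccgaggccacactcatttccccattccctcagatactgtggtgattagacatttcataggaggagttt

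Motif letters were searched on both strands. Because windows can be shifted against each other, letters missing from one may lie outside it. The C/EBP-type letters TTGCNNAA occurred in 3 of the 9 promoters (*Csta3*, *Cstdc5* and *Stfa1*, as TTGCCTAA each time), against 10.8% of all 32851 promoters. The PU.1-type letters GAGGAAG occurred in 4 (*Csta1*, *Cstdc4*, *Cstdc5* and *Stfa1*), against 13.6% of all promoters. The AP-1-type letters TGANTCA occurred in 1 (*Stfa3*), against 7.81%. The letters TATAAA were in none of the 9 windows (13.6% of all) and the NF-κB motif in none (4.51% of all). These counts are descriptions of letters in related sequences, and related promoters are not independent of each other.

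Cysteine proteases were taken as a list of 11 genes, 10 cathepsins, the papain-like targets of stefins, and *Lgmn*, for legumain, which is of another family and is not a stefin target. Of these, 3 were called higher and 2 lower, beside 20.9% and 24.9% of all tested genes, and the median log2 fold change was 0.61 against −0.07 over all genes. *Ctsl*, for cathepsin L, which acts in epidermal and hair follicle turnover, rose from 414 ± 56.5 to 1220 ± 88.6 CPM (log2 fold change 1.56 ± 0.15, edgeR adjusted p = 4.1e-06). *Ctsc*, for the dipeptidyl peptidase that activates neutrophil serine proteases, rose from 54.8 ± 5.19 to 184 ± 27.0 CPM (1.75 ± 0.13, edgeR adjusted p = 9.2e-07). *Ctsh*, for the aminopeptidase cathepsin H, rose from 146 ± 21.1 to 388 ± 85.2 CPM (1.41 ± 0.17, edgeR adjusted p = 2.6e-05).

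*Ctsb*, for cathepsin B, was at 459 ± 41.1 and 701 ± 141 CPM and, at a log2 fold change of 0.61 (−0.06 with library totals), was under the 2-fold limit. *Ctsw*, a protease gene of cytotoxic lymphocytes, fell by 3.00 ± 0.40 on the log2 scale (edgeR adjusted p = 4.3e-05), and *Ctsf* fell by 1.93 ± 0.19 (edgeR adjusted p = 4.4e-06). With library totals in place of TMM factors, *Ctsl* (0.88) and *Ctsh* (0.69) were under the 2-fold limit and *Ctsc* alone was called higher. The 11 proteases summed to 1320–1510 CPM in the controls and 2730–3030 CPM in the *Supt6*-KO mice, in which *Supt6*-KO 4, the lowest for the stefins, was the highest. That order rests on *Ctsl* (1130, 1250, 1180 and 1330 CPM in mice 1 to 4) and *Ctsb* (693, 556, 661 and 893), which held most of the sum.

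Cystatins of other families were listed too. Of 15 genes, 8 had a row and 6 were tested, with 3 called higher and 1 lower, beside 20.9% and 24.9% of all tested genes. *Cst6*, for the secreted skin cystatin E/M, rose from 352 ± 63.5 to 1000 ± 183 CPM (log2 fold change 1.51 ± 0.18, edgeR adjusted p = 2.4e-05), and 0.79 with library totals. *Cst3*, for the widely secreted cystatin C, was at 676 ± 73.3 and 845 ± 282 CPM and was not called (0.32 ± 0.23, edgeR adjusted p = 0.23, −0.42 with library totals). *Fetub* rose from 3.17 ± 1.01 to 157 ± 59.5 CPM (5.63 ± 0.35, edgeR adjusted p = 3.5e-07) and *Ahsg* from 0.0922 ± 0.0477 to 3.00 ± 1.71 CPM (4.97 ± 0.61, edgeR adjusted p = 2.5e-05), both genes for fetuins. *Cst7*, for cystatin F of leukocytes, was called lower (−1.26 ± 0.30, edgeR adjusted p = 0.0028).

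Cystatin A is a cornified envelope protein, so 12 envelope proteins and crosslinking enzymes were set beside it. The fit called 4 higher and 2 lower, where 20.9% and 24.9% of all tested genes were called, and the median log2 fold change was −0.25. *Rptn*, for repetin, rose from 6.57 ± 1.38 to 4460 ± 2190 CPM (9.41 ± 0.43, edgeR adjusted p = 6.8e-08). *Cnfn*, for cornifelin, rose by 2.14 ± 0.18 on the log2 scale (edgeR adjusted p = 2.2e-06), and *Ivl*, for involucrin, by 1.99 ± 0.20 (edgeR adjusted p = 5.3e-06).

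*Lor*, for loricrin, the main protein of the mature envelope, fell from 1160 ± 284 to 492 ± 222 CPM (−1.23 ± 0.35, edgeR adjusted p = 0.0086). The paper reports the other direction at the same day, with higher *Lor* mRNA by RT-qPCR and stronger LOR staining in *Supt6*-KO skin. The source of that difference was not tested. In *Supt6*-KO mice 1 to 4 *Lor* was at 642, 593, 572 and 162 CPM, so mouse 4 lay far below the others. *Evpl*, for envoplakin, fell from 164 ± 39.2 to 49.0 ± 4.02 CPM (−1.74 ± 0.18, edgeR adjusted p = 7.4e-06). Without *Supt6*-KO 4 the number called lower went from 2 to 1, and with library totals it was 5.

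Neutrophil markers were listed as well. Of 19 listed genes 18 were tested, 13 were called higher and 1 lower (all tested genes, 20.9% and 24.9%), and the median log2 fold change was 5.08. Their sum was 136, 163, 134, 115 and 90.2 CPM in controls 1 to 5 and 4740, 5400, 6720 and 2620 CPM in *Supt6*-KO mice 1 to 4, so *Supt6*-KO 3 was highest and *Supt6*-KO 4 lowest. Sums of the 10 stefins, the macrophage markers and the cornified envelope list had the same highest and lowest mouse, but a few genes carried them. Without *Lyz2* the macrophage sum was 256, 231, 257 and 291 CPM in *Supt6*-KO mice 1 to 4, so mouse 4 was highest, and without *Rptn* the cornified sum was 3090, 2660, 2680 and 2020 CPM, so mouse 1 was highest. In the controls most of the sum was *Il1r2*, which was not called (84.6 ± 15.8 to 119 ± 49.4 CPM). In the *Supt6*-KO mice most of it was *S100a9* (12.3 ± 7.08 to 2710 ± 895 CPM; log2 fold change 7.78 ± 0.54, edgeR adjusted p = 6.6e-07), and *S100a8* (8.20 ± 4.76 to 1920 ± 727 CPM; 7.87 ± 0.60, edgeR adjusted p = 1.1e-06). Both calprotectin subunits are also made by stressed keratinocytes, and without them the sum was 210, 259, 346 and 132 CPM in *Supt6*-KO mice 1 to 4, beside 78.7–127 in the controls. A large part of that remainder was *Il1r2*, at 124, 155, 148 and 47.2 CPM in *Supt6*-KO mice 1 to 4 and 61.2–106 in the controls. The low place of mouse 4 in the remainder rests largely on *Il1r2*.

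Markers more confined to neutrophils were present at far lower levels. *Trem1* rose from 0–6 counts in the controls to 125–234 (log2 fold change 7.07 ± 0.62, edgeR adjusted p = 2.5e-06). *Clec4d* rose from 0.352 ± 0.253 to 34.7 ± 18.9 CPM (6.61 ± 0.50, edgeR adjusted p = 1.1e-06) and *Csf3r*, the receptor for granulocyte colony-stimulating factor, from 0.496 ± 0.144 to 8.47 ± 2.99 CPM (4.08 ± 0.30, edgeR adjusted p = 8.7e-07). *Fpr1*, *Fpr2* and *Mmp8* were also called higher, by 5.87, 6.46 and 5.07 on the log2 scale. None of these 6 genes, picked from the list, overlapped between the groups. Of all tested genes, 28.9% had every *Supt6*-KO mouse above every control. In the same list *Camp* (0.10), *Mmp9* (0.46), *Padi4* (0.39) and *Il1r2* (0.49) were not called, and their groups overlapped. *Supt6*-KO 1 and not mouse 4 was the lowest for *Trem1* (5.22, 8.16, 10.7 and 6.93 CPM in mice 1 to 4), *Csf3r* (5.64, 6.43, 12.1 and 9.74), *Fpr1*, *Fpr2* and *Mmp8*. *Cxcr2* was highest in mouse 1 (19.4, 13.2, 10.6 and 10.2 CPM). Over the 13 markers called higher, mouse 3 was highest for 11, and mice 1 and 4 were each lowest for 6. *Ly6g*, the usual neutrophil surface marker, had 0–1 counts in controls against 4, 0, 15 and 1 in *Supt6*-KO mice 1 to 4. It was called higher (4.56 ± 1.28, edgeR adjusted p = 0.0076) although the groups overlapped. *Elane* was at 0 or 1 count in every mouse, and *Mpo* fell from 4–26 to 0–1 counts (edgeR adjusted p = 0.00095). The paper reports strong MPO staining on the surface of the knockout epidermis at the same day, and stained neutrophils there at an earlier day. Staining shows protein and these counts show RNA, so the low *Mpo* and *Elane* counts are not read as a lack of neutrophils. The source of that difference was not tested. *Retnlg*, a granulocyte gene, had 279, 279, 1167 and 113 counts in *Supt6*-KO mice 1 to 4 against 3–19 in the controls. The part of neutrophils in the stefin values was not tested.

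Of 8 macrophage markers, 5 were called higher and 1 lower, against 20.9% and 24.9% of all tested genes, and their sum was 163–341 CPM in the controls and 698–1170 in the *Supt6*-KO mice. *Lyz2*, which neutrophils also express, had the highest CPM of the list and held most of the sum in the *Supt6*-KO mice only (92.9 ± 18.5 to 641 ± 207 CPM; log2 fold change 2.79 ± 0.23, edgeR adjusted p = 1.9e-06). *Mrc1* rose by 1.89 ± 0.31 (edgeR adjusted p = 0.0002) and *C1qb* by 1.48 ± 0.23 (edgeR adjusted p = 0.00014) on the log2 scale, and *Csf1r* fell by 1.83 ± 0.25 (edgeR adjusted p = 5.1e-05). The number called higher was 3 without *Supt6*-KO 4, 3 without control 3, and 2 with library totals, where *C1qb* (0.78) was not called. Of 5 mast cell markers 1 was called higher, of 4 T cell markers tested 1 was called in each direction, and of 4 fibroblast markers 2 were called lower. The same shares of all tested genes, 20.9% and 24.9%, stand beside these counts.

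Keratinocyte markers kept a high total, 41700–46600 CPM in the controls and 39700–57000 CPM in the *Supt6*-KO mice, with 3 of 10 called higher and 3 lower, beside 20.9% and 24.9% of all tested genes. *Krt10* was the most abundant, at 14300 ± 730 and 16400 ± 5760 CPM, and was not called (0.19 ± 0.28, and −0.55 with library totals). *Krt1*, of the spinous layer, rose from 833 ± 159 to 10400 ± 2430 CPM (log2 fold change 3.65 ± 0.24, edgeR adjusted p = 5.3e-07), *Dsc1* by 2.10 ± 0.19 (edgeR adjusted p = 2.9e-06) and *Perp* by 1.55 ± 0.24 (edgeR adjusted p = 0.00015). *Krt2* fell by 6.35 ± 0.80 (edgeR adjusted p = 3e-05), *Krt15*, of basal cells, by 2.65 ± 0.23 (edgeR adjusted p = 2.2e-06) and *Trp63* by 1.21 ± 0.14 (edgeR adjusted p = 1.5e-05). With library totals *Perp* (0.83) was not called and *Krt5* (−1.51) was called lower, which left 2 higher and 4 lower. *Supt6*-KO 4 alone was below the controls in this total.

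**Figure D5:**
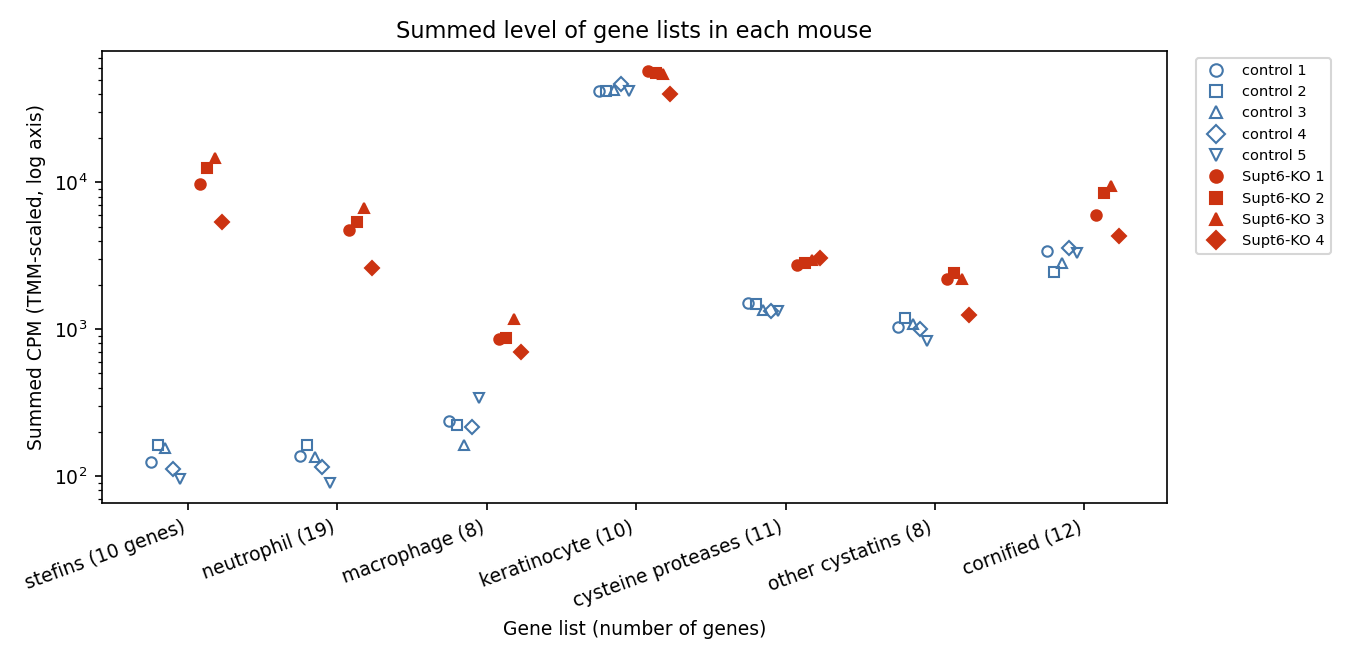
Summed TMM-scaled CPM, on a log axis, of the 10 stefins of the cluster and of 6 gene lists in each mouse, with open blue symbols for the 5 controls and filled red symbols for the 4 *Supt6*-KO mice. The stefin sum is 95.1–164 CPM in the controls and 5389–14594 CPM in the *Supt6*-KO mice, the neutrophil marker sum 90.2–163 and 2620–6720 CPM, and in both *Supt6*-KO 3 is highest and *Supt6*-KO 4 lowest.

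Genes with profiles most like the stefins were found from the root mean square difference between log2(CPM + 1) values centered on each gene's mean, over all 9 mice. The 10 nearest to the summed chromosome 16 members were *Serpinb3a* (0.182), *Lce3c* (0.21), *Chil3* (0.249), *Akr1d1* (0.302), *Sprr2b* (0.336), *Defb14* (0.337), *Cxcl2* (0.343), *Il1b* (0.343), *Klk13* (0.351) and *Lce3b* (0.356). *Serpinb3a*, which encodes a serpin, was at 11.5 CPM in the controls and 505 CPM in the *Supt6*-KO mice on average. The 9 mice fall into 2 groups far apart, so likeness here mostly means a change of like size in log2(CPM + 1). In the edgeR fit these 10 genes had log2 fold changes from 5.45 (*Serpinb3a*) to 8.82 (*Cxcl2*), because adding 1 CPM shrinks the change of genes low in the controls.

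Nearest to *Csta1* were *Tmem40* (0.153), *Crct1* (0.163), *Stx19* (0.187), *9930012K11Rik* (0.189) and *Cysrt1* (0.189). Nearest to *Cstb* were *Rpl34* (0.123), *Bloc1s2* (0.128), *Avpi1* (0.133), *Sat1* (0.143) and *Higd1a* (0.152). No gene was on more than one of the 3 lists, although *Csta1* and *Cstb* had changes of similar size. The lists hold only the few nearest genes, so this does not show that the profiles of *Csta1* and *Cstb* differ.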

How the data were processed

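RNA-Seq of skin from 5 control and 4 *Supt6*-KO mice was analyzed from 1 table of 17943 genes. The authors aligned reads to mm10 (the submitters' processing notes name HISAT, Bowtie2 2.3.4.3, RSEM 1.3.1 and DESeq2 1.4.5) and deposited estimated counts per gene, without normalization between mice, and TPM for 6 of the 9 mice. The annotation release is not given in the sources used here. RSEM divides reads among alike copies in proportion to its estimate, which bears on the stefins: 9.0% of all estimated counts were not whole, and counts were rounded to whole numbers before testing. Totals were 29627341–30967107 per mouse, and counting intervals cover counting error only.

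Genes with a sum of at least 10 counts (16426) were tested with edgeR 4.0.16 (R 4.3.3) by its quasi-likelihood test with TMM factors, no covariates and Benjamini-Hochberg adjustment. A gene was called at an adjusted p under 0.05 and a change of 2-fold or more either way. The SE is the absolute log2 fold change divided by the square root of F. Of the identifiers, 17917 matched RefSeq genes of GRCm38.p6, and transcripts came from GENCODE. Genes of each list are named by size: the 3 largest called changes each way that reach 1 CPM in one group, then the 2 most abundant. Markers at or near 0 and *Retnlg* were named after their values were seen. The neutrophil markers *Clec4d*, *Csf3r*, *Cxcr2*, *Fpr1*, *Fpr2*, *Mmp8*, *Il1r2*, *Camp*, *Mmp9* and *Padi4* were also named outside this rule. The 8 members and all lists were chosen with earlier results of these data known. The alternatives were upper-quartile factors, library totals alone, DESeq2 1.42.0, looser and stricter filters, a prior count of 2, deposited TPM, a block for the replicate number, leaving out each mouse, and centering on genes of like length, the last chosen after seeing the data, as were the list sums without their leading genes.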

Additional observations from a re-analysis of the deposited data

Results flagged for a closer look

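Among 70 groups of values examined (each member, stefin neighbor, flanking gene and list total in the controls or the *Supt6*-KO mice), 5 held a mouse far from the rest of its group, against 3.5 that chance would give. *Cstdc6* was at 0.0267 CPM in control 1, which is its 1 estimated count, and at 0 in the other controls. *Casr* was at 0.0718 CPM in *Supt6*-KO 4 and at 0 in the other *Supt6*-KO mice. *Ildr1* was at 0.32 CPM in *Supt6*-KO 3, below a group median of 0.863 CPM. The summed keratinocyte markers reached 46600 CPM in control 4, where the median control had 42100 CPM, and 39700 CPM in *Supt6*-KO 4, where the median of that group was 55100 CPM. *Supt6*-KO 4 was also the lowest of its group for 7 of the 8 members.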

How the results depend on the processing

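The members, chosen on these same counts, were higher under every alternative that gave a value, which is a description and no independent support. Library totals turned the sign of genes that were not called, among them *Ctsb*, *Cst3*, *Krt10*, *Kpna1*, *Parp9*, *Wdr5b* and *Cd86*. With library totals the median log2 change of all genes was −0.76 in place of −0.07, the genes called went from 3427 higher and 4088 lower to 1470 and 6802, and the calls became 1 higher among cysteine proteases, 2 lower among other cystatins, 5 lower among cornified envelope genes, 2 higher among macrophage markers and 2 lower among flanking genes. The median log2 fold change over the 8 members, 9.56, was then 8.82, and the log2 ratio of the summed chromosome 16 members, 5.69, was 4.96. Counted as 1 feature in the edgeR fit, the 10 stefins had a log2 fold change of 6.34. Upper-quartile factors left 3 macrophage markers called higher. Asking for 10 counts in every mouse, which removes genes silent in 1 group, left 1 protease, 0 other cystatins, 0 neutrophil markers and 0 flanking genes called lower and 4 neutrophil markers called higher, and kept too few members for a median. The members' median was 7.99 with a prior count of 2 and 8.10 after centering on genes of like length, chosen after seeing the data. By deposited TPM, *Csta1* held 30.0% of the stefin level in the controls (61.9% per kilobase here) and *Cstdc5* 58.5% in *Supt6*-KO 4 (55.0%). The cause of these shifts was not tested.

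Leaving out 1 mouse in turn gave 3248–3476 genes higher and 3845–4204 lower, 1–2 other cystatins lower (2 without *Supt6*-KO 3), 1–3 cornified genes lower (1 without *Supt6*-KO 4), 3–6 macrophage markers higher (3 without *Supt6*-KO 4 or control 3), 2–3 flanking genes higher (2 without *Supt6*-KO 3, *Supt6*-KO 4 or control 4), a members' median of 9.08–9.76 and a summed log2 ratio of 5.47–5.89. *Cstdc6*, with 1 control count, ranged from 11.16 to 12.58, and was 8.50 with a prior count of 2.

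Mice of the 2 groups share replicate numbers, but same-numbered mice deviated together only weakly (r 0.021–0.248 in 4 pairs, other pairs −0.251 to 0.308), so the numbers were not treated as pairs. With the replicate number as a block, 3134 genes were called higher and 3834 lower, and the members' median was 9.23. The stefin neighbors, the flanking genes, cornified genes and keratinocyte markers kept their counts of calls under the block, *Ctss* (1.05) and *C1qc* (1.04) were added to the higher calls and *Cxcr2* (0.95) was lost. The block gives no value for the summed level. Depth limits 5 members, with 1 to 7 counts over all controls, to the intervals given.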
